A study of Danio rerio with 4 samples.

Results

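The respiratory chain of the adult zebrafish heart was followed through 115 genes among the 14962 of the authors' deposited table. They are the genes whose symbols begin with the stems of the subunits of complexes I to V: 102 are encoded in the nucleus and 13 in the mitochondrial genome. The symbol stems also take in 13 nuclear genes for assembly factors, which build a complex or equip it with cofactors and are not part of it. The 3 genes of the ndufa4 family were placed in complex IV, because mammalian NDUFA4, once named as a complex I subunit, is known to belong there.

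Complexes I to IV sit in the inner mitochondrial membrane and pass electrons from NADH and succinate to oxygen. Complexes I, III and IV pump protons on the way, and complex V, the ATP synthase, uses the return flow of protons to make ATP. The mitochondrial genome carries genes for core subunits of complexes I, III, IV and V and for none of complex II. Its genes are transcribed as long precursor RNAs from few promoters, while each nuclear subunit gene has its own. Heart muscle, which beats without rest, depends on this machinery for nearly all of its ATP, and vertebrates use muscle forms of several complex IV subunits.

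Per the labels, adult fish of the Ekkwill strain received daily injections of vehicle or of alfacalcidol, a vitamin D precursor that the body turns into the active hormone, over 3 days, and the hearts were collected 24 hours after the final dose. Both groups shared strain, stage and growth temperature, and the sources used here give no dose, sex or age in months. Each group had 2 count libraries, with 31427486 and 34765941 counts under the vehicle label and 33957706 and 39572163 under the alfacalcidol label. Nothing says that these came from separate animals or pools, so p-values from them measure the spread between libraries only. A further file is the authors' own comparison, with a log2 fold change, a mean level in CPM (counts scaled to a common library total) and p-values per gene but no values per library.

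The marker check split these sources. The 8 heart muscle markers summed to 89164 CPM in the authors' deposited table and to between 300.7 and 353.4 CPM in the 4 count libraries. Markers of skeletal muscle summed to between 34298 and 40203 CPM in the count libraries and those of epidermis to between 17054 and 26297 CPM, against 1514 and 336.4 CPM in the authors' deposited table. The last sum holds 3 of the 5 epidermis markers. The count libraries go against their heart label, so they are named by label only and described apart. They also paired across the labels: vehicle replicate 2 was closest to alfacalcidol replicate 1, with a mean chi-square per gene of 2.21, and vehicle replicate 1 to alfacalcidol replicate 2, with 7.11, against 18.1 and 20.9 for the pairs that share a label. The authors' deposited table does not name its numerator. Its positive values were read as higher with alfacalcidol from the sign of cyp24a1, a known target of the vitamin D receptor. That gene had a log2 fold change of 1.53 (adjusted p 8.19e-05) at a low mean level of 1.88 log2 CPM. Every direction below rests on that reading of 1 gene.

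Little of the respiratory chain passed the test in the heart comparison, and what passed was lower with alfacalcidol. Of the 115 genes, 6 passed an adjusted p of 0.05 in the authors' deposited table (Benjamini-Hochberg over all genes, edgeR per the submitters' processing notes), all lower, against 20.1% of all genes in either direction, 9.22% lower and 10.9% higher. The 6 were mt-co1, mt-co2, mt-co3 and mt-cyb from the mitochondrial genome and ndufb7 and cox7a1 from the nucleus. None of the 115 genes reached a 2-fold difference in the authors' deposited table, against 8.43% of all genes that were called and did, and values ran from -0.61 for mt-co2 to 0.46 for cox7a2a. At an unadjusted p under 0.05 the authors' deposited table held 20 lower members and 1 higher one, against 14.3% and 16.3% of all genes.

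Small negative values were the rule among the members. A negative log2 fold change was listed for 90 of the 115 genes in the authors' deposited table (median -0.15), against a median of 0.01 over all genes, 49.0% of which were negative. Abundant genes of any kind shared this tilt: the 1837 genes at 64 CPM or more in the authors' deposited table had a median of -0.17, with 72.1% negative and 23.0% called, 19.1% lower and 3.97% higher. The 94 members at that level had a median of -0.16 in the authors' deposited table, and 6 of them were called. That level was chosen after the values were seen.

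The deposited p-values allow a rough error. Dividing each log2 fold change by the normal quantile of its two-sided p gave standard errors of 0.17 to 0.31 over the members with a p under 0.9, with a median of 0.18. Among those at 64 CPM or more they ran only from 0.17 to 0.19. Without values per library, how far these errors reflect the spread of each single gene could not be tested. The threshold fell among near neighbours: mt-cyb was the last gene inside it at -0.47 (adjusted p 0.0412). Just outside it stood sdha at -0.45 and cox7a2a at 0.46 (adjusted p 0.0520 each) and mt-atp6 at -0.45 (adjusted p 0.0526), all in the authors' deposited table. At an adjusted p of 0.1, the authors' deposited table held 14 lower members and 1 higher one, against 25.4% of all genes, 11.8% lower and 13.6% higher.

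**Figure D1:**
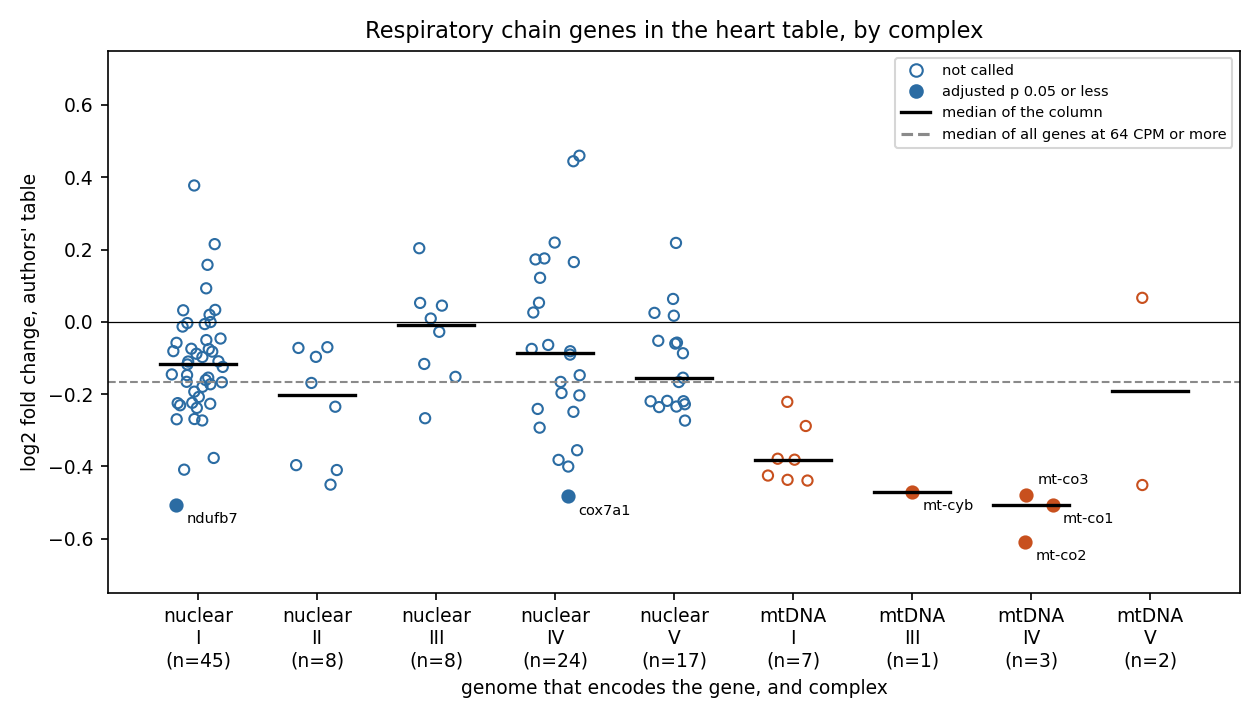
Each point is 1 gene, placed by the genome that encodes it and its complex (x axis), at its log2 fold change in the authors' deposited table (y axis); filled points passed an adjusted p of 0.05, black bars are column medians and the dashed line is the median of all genes at 64 CPM or more. The mitochondrially encoded genes of complexes I, III and IV lie between -0.22 and -0.61, below most nuclear genes, and the 6 filled points are all negative.

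The mitochondrially encoded genes stood lowest. Of the 13, 12 had a negative value in the authors' deposited table, 4 were called lower and 0 higher, and the median was -0.44. Of all genes 9.22% were called lower, and of the genes at 64 CPM or more 19.1%. The 13 had mean levels of 1605 to 49825 CPM, against a median of 184.5 CPM for the nuclear members. Abundant genes of any kind tilted to negative values, as given above, and the part of level in the values of the 13 was not tested. The 102 nuclear members had a median of -0.11 in the same table, with 2 called lower and 0 higher. The difference between the encoded classes was not tested, since no library values stand behind the table and the mitochondrial genes share precursor transcripts. All 13 lie on the mitochondrial genome (GRCz10 coordinates) and contributed about 20.8% of the CPM total in the authors' deposited table, against 3.19% for the 102 nuclear genes.

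All 3 mitochondrially encoded subunits of complex IV, which form its catalytic core, were called. The gene mt-co2 (positions 8130 to 8820), whose product takes electrons from cytochrome c, fell by 0.61 ± 0.18 (implied SE; adjusted p 0.00476) in the authors' deposited table. The largest subunit gene mt-co1 (6425 to 7975), with the oxygen-reducing site, had a log2 fold change of -0.51 ± 0.18 (adjusted p 0.0264) and mt-co3 (9735 to 10520) one of -0.48 ± 0.18 (adjusted p 0.0359) there. The only mitochondrially encoded gene of complex III, mt-cyb (15308 to 16448), which encodes cytochrome b, was called as well, at -0.47 ± 0.18 in the authors' deposited table.

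None of the 7 mitochondrially encoded genes of complex I, which form its proton-pumping arm, was called, though all were negative and 5 had an unadjusted p under 0.05. They ran in the authors' deposited table from -0.44 for mt-nd4 and mt-nd3 (adjusted p 0.0601 and 0.0688) over -0.43 for mt-nd2 to -0.29 for mt-nd5 and -0.22 for mt-nd1. The values for mt-nd4l and mt-nd6 were -0.38 and -0.38 in that table. All vertebrate mitochondrial mRNAs but that of mt-nd6 come from the heavy strand, and mt-nd6 lay inside the range of the others. The sources used here do not say whether reads were counted by strand, so its value may include RNA of the other strand.

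The ATP synthase genes parted. The gene mt-atp6, for the subunit that guides protons to the rotor, had a log2 fold change of -0.45, and mt-atp8, for a small stabilising subunit, one of 0.07 (adjusted p 0.855) in the authors' deposited table. Their coding regions overlap by 7 bases, and vertebrates are known to carry both on 1 mRNA. The mt-nd4l and mt-nd4 pair overlaps by 7 bases as well, and its values of -0.38 and -0.44 lay close together. At 165 bases mt-atp8 is the shortest of the 13 genes, and the sources used here do not say how reads shared by overlapping genes were counted, so its value is uncertain.

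Levels per length could be compared only among the mitochondrial genes, which have no introns. Mean levels per length, taken from the authors' deposited table, lay between 5916 CPM per kb for mt-nd5 and 44218 CPM per kb for mt-co2, a 7.47-fold range. After mt-co2 came mt-atp6 at 37782, mt-co1 at 32125, mt-co3 at 24634 and mt-cyb at 23946 CPM per kb, and the rest of the table's mitochondrial genes were at 10407 or below. The 5 highest per length thus include the 4 called genes. In the count libraries the same 5 genes led on the same scale, with mt-co1 first at a mean of 5395 CPM per kb and mt-nd3 last at 896.8 CPM per kb.

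**Figure D2:**
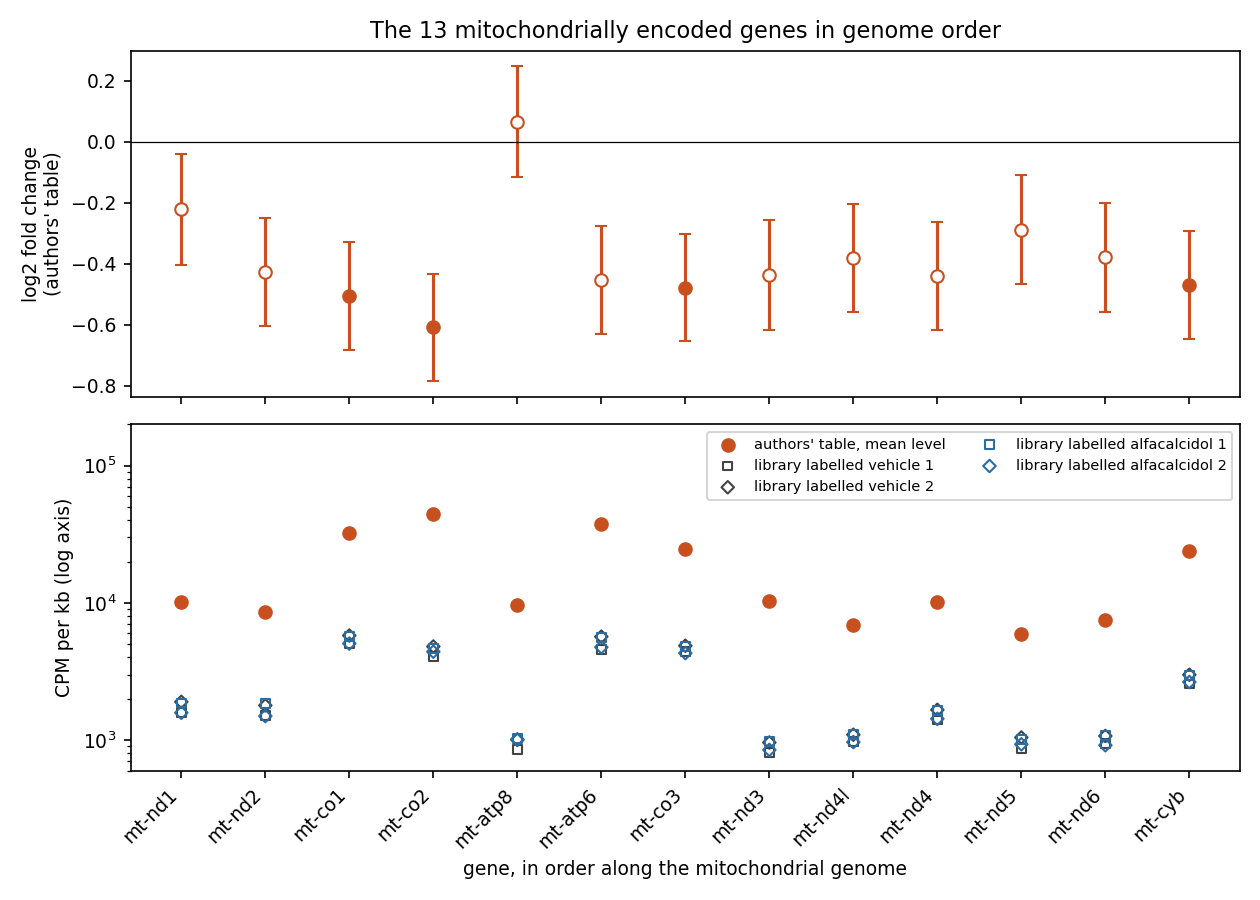
The upper panel gives the log2 fold change (y axis) of each mitochondrially encoded gene in the authors' deposited table with its implied standard error; filled points passed an adjusted p of 0.05 and genes are ordered along the genome (x axis). The lower panel gives levels in CPM per kb on a log axis, for the table's mean and for each count library: mt-atp8 is the only gene above 0 in the upper panel, and mt-co1, mt-co2, mt-atp6, mt-co3 and mt-cyb lead in the lower one.

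Heart muscle markers had negative values too, 8 of 8 in the authors' deposited table (median -0.37). Of these, 1 was called, the natriuretic peptide gene nppa at -1.09, while vmhc stood at -0.10 (adjusted p 0.809). All 8 had means of 951.0 CPM or more. Of genes at 64 CPM or more in that table, 72.1% were negative and 19.1% were called lower. Over all genes 9.22% were called lower. Blood markers were negative as well, 3 of 3 rows in the authors' deposited table (median -0.38, 0 called). These rows are globin genes of 1 stretch of chromosome 3 (54843855 to 54851382) with partly overlapping spans, so they are not independent. The epidermis markers krt4, at -1.25 and a mean of 99.8 CPM, and icn were called lower there. The epidermis marker krt5, at a mean of 4.07 CPM, went the other way at 0.87 without a call (adjusted p 0.105). The skeletal muscle list had 2 negative values of 7 and 1 called lower, the creatine kinase gene ckma at -0.83 and a mean of 1492 CPM. The other rows of that list had means of 8.75 CPM or less. In bulk RNA, fewer cells of a type and less RNA per cell cannot be told apart. The parts of level and of cell composition in these values were not tested.

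Complex I, which oxidises NADH, had 45 nuclear members, of which 38 were negative in the authors' deposited table (median -0.12), with 1 called lower and 0 higher. The called gene was ndufb7 (chromosome 1, 55102477 to 55108071), for a subunit on the intermembrane side of the membrane arm, at -0.51 ± 0.18 (adjusted p 0.0264) and a mean of 274.8 CPM in that table. All 10 ndufb genes of the membrane arm were negative in the authors' deposited table, but the other 9 lay between -0.27 for ndufb10 and -0.01 for ndufb6.

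The next lowest nuclear subunit gene of complex I, ndufa3, stood at -0.41 (adjusted p 0.0919) in the authors' deposited table. The 8 subunit genes of the matrix arm around the flavin, the iron-sulphur clusters and the quinone site ran from -0.23 for ndufv2 to -0.01 for ndufs8a in the authors' deposited table, and 0 were called, also at an unadjusted p under 0.05. The highest values in complex I belonged to ndufaf7, for a methyltransferase needed in assembly, at 0.38 (adjusted p 0.193), and to ndufab1b, for a mitochondrial acyl carrier protein, at 0.21 (adjusted p 0.459). The duplicate ndufab1a had a value of 0.00 in the authors' deposited table. Of 8 complex I assembly factors, 5 were negative in that table, with NDUFAF3 lowest at -0.38 (adjusted p 0.136).

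Complex II, succinate dehydrogenase, links the citric acid cycle to the chain and is entirely nuclear. All 8 of its members were negative in the authors' deposited table (median -0.20); 0 were called, and 3 had an unadjusted p under 0.05. The catalytic pair was lowest: sdha, for the flavoprotein that oxidises succinate, at -0.45 (adjusted p 0.0520) and sdhb, for the iron-sulphur subunit, at -0.41 (adjusted p 0.0850). The membrane anchor genes sdhc and sdhdb had values of -0.17 and -0.07 in the authors' deposited table. Among the assembly factors sdhaf2, which attaches the flavin to the catalytic subunit, stood at -0.40 (adjusted p 0.1002) and sdhaf1 at -0.07.

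Complex III, which passes electrons from ubiquinol to cytochrome c, had 8 nuclear members, 4 negative and 4 positive in the authors' deposited table (median -0.01), with 0 called and 0 at an unadjusted p under 0.05. Their lowest were uqcrq at -0.27 and the core protein gene uqcrc2b at -0.15, and their highest uqcrb at 0.20 and uqcrc1 at 0.05. The Rieske iron-sulphur protein gene uqcrfs1, whose product hands electrons onward, stood at -0.12 in the authors' deposited table. All 8 nuclear values were smaller in size than the -0.47 of mt-cyb, their mitochondrially encoded partner. That difference was not tested, and the implied SE was 0.18 for uqcrq as for mt-cyb.

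Complex V had 17 nuclear members, 13 of them negative in the authors' deposited table (median -0.15), with 0 called and 0 at an unadjusted p under 0.05. In the catalytic head atp5b, which carries the catalytic sites, was at -0.05 and atp5a1 at -0.09, with mean levels of 3576 and 2347 CPM in that table. The 5 genes of the head with its central stalk (atp5a1, atp5b, atp5c1, atp5d and atp5e) ran from -0.22 for atp5d to -0.05 for atp5b. Lowest were atp5ib at -0.27 and atp5l at -0.24, for small subunits of the membrane part where synthase dimers form, and highest was atp5g1 at 0.22, for the c subunit of the rotor ring. The other c subunit genes, atp5g3b and atp5g3a, which encode near-identical mature proteins in vertebrates, had values of -0.17 and 0.02 in the authors' deposited table.

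Complex IV, cytochrome c oxidase, was the complex whose nuclear members spread most widely, from -0.48 to 0.46 in the authors' deposited table (24 genes, median -0.09, 15 negative, 1 called lower and 0 higher). Its small nuclear subunits come in alternative forms. The called gene was cox7a1 (chromosome 15, 20467352 to 20470064), the heart and skeletal muscle form of subunit VIIa in mammals, at -0.48 ± 0.18 (adjusted p 0.0327). The highest value was that of cox7a2a (chromosome 17, 49883252 to 49895461), a form found in most mammalian tissues, at 0.46 ± 0.18 (adjusted p 0.0520) in the authors' deposited table. The difference of -0.94 between these forms was not tested.

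Differences within the other families varied, and none was tested. In the authors' deposited table cox6a2, the muscle form of subunit VIa in mammals, had a value of -0.38 (adjusted p 0.112) and cox6a1, the general form, one of 0.22 (adjusted p 0.4996). For subunit VIII, cox8b, a muscle form in rodents, stood at -0.24 and cox8a at 0.05. For subunit Vb, cox5b2 was at -0.08, while the COX5B copy on chromosome 10 was at 0.44 (adjusted p 0.188) and that on chromosome 8 at 0.03 in the authors' deposited table. These 2 copies carry the same symbol, and reads shared between near-identical copies may be split between them. For subunit IV, cox4i1l had a value of -0.36, cox4i1 one of -0.25 and cox4i2, in mammals a form of lung and of low oxygen, one of 0.17. The pair cox5aa and cox5ab was at 0.12 and -0.06, and the pair cox6b2 and cox6b1 at -0.29 and -0.07. In the ndufa4 family ndufa4l was at -0.40 (adjusted p 0.0922), ndufa4 at 0.18 and ndufa4l2a at -0.17 in the authors' deposited table. None of the genes in this paragraph was called.

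The forms cox4i1l, cox5b2, cox6a2, cox7a1 and cox8b, all with negative values, were abundant in the heart table and scarce in the count libraries, whose values were scaled separately. The gene cox6a2 had a mean of 447.8 CPM in the authors' deposited table and values of 0.286 and 0.633 CPM under the vehicle label and 0.739 and 0.302 CPM under the alfacalcidol label. Its partner cox6a1 ran the other way, with 24.8 CPM in the authors' deposited table and between 149.6 and 178.3 CPM in the 4 count libraries. The ratio of cox6a2 to cox6a1, in which gene length cancels between sources, was thus 12.56 log2 units higher in the heart table than in the count libraries.

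Similar shifts were found in 4 further families. The ratio of cox5b2 to the COX5B copy on chromosome 10 was 9.22 log2 units higher in the authors' deposited table than in the count libraries, that of cox8b to cox8a 7.34, that of cox7a1 to cox7a2a 6.92 and that of cox4i1l to cox4i1 6.66. For cox7a1 itself the values were 465.8 CPM in the authors' deposited table against 5.31 and 4.78 CPM under the vehicle label and 4.88 and 4.51 CPM under the alfacalcidol label. Other pairs of complex IV shifted less: the ratio of cox5aa to cox5ab differed between the sources by 0.25 log2 units, that of cox6b2 to cox6b1 by -0.84, that of ndufa4l to ndufa4 by -0.83 and that of cox4i2 to cox4i1 by -2.57. In other complexes the ratio of ndufab1a to ndufab1b differed between the sources by 0.11 log2 units, that of atp5g3a to atp5g3b by -0.45 and that of uqcrc2a to uqcrc2b by -0.88. The count libraries were rich in skeletal muscle RNA, with actc1b between 13649 and 16401 CPM and ckma between 3739 and 4013 CPM, and still held cox6a2 at under 1 CPM. They were a mixture: besides epidermis, cartilage and bone markers summed to between 6344 and 6668 CPM there. Liver markers summed to between 4232 and 5080 CPM and neural ones to between 700.2 and 753.0 CPM.

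**Figure D3:**
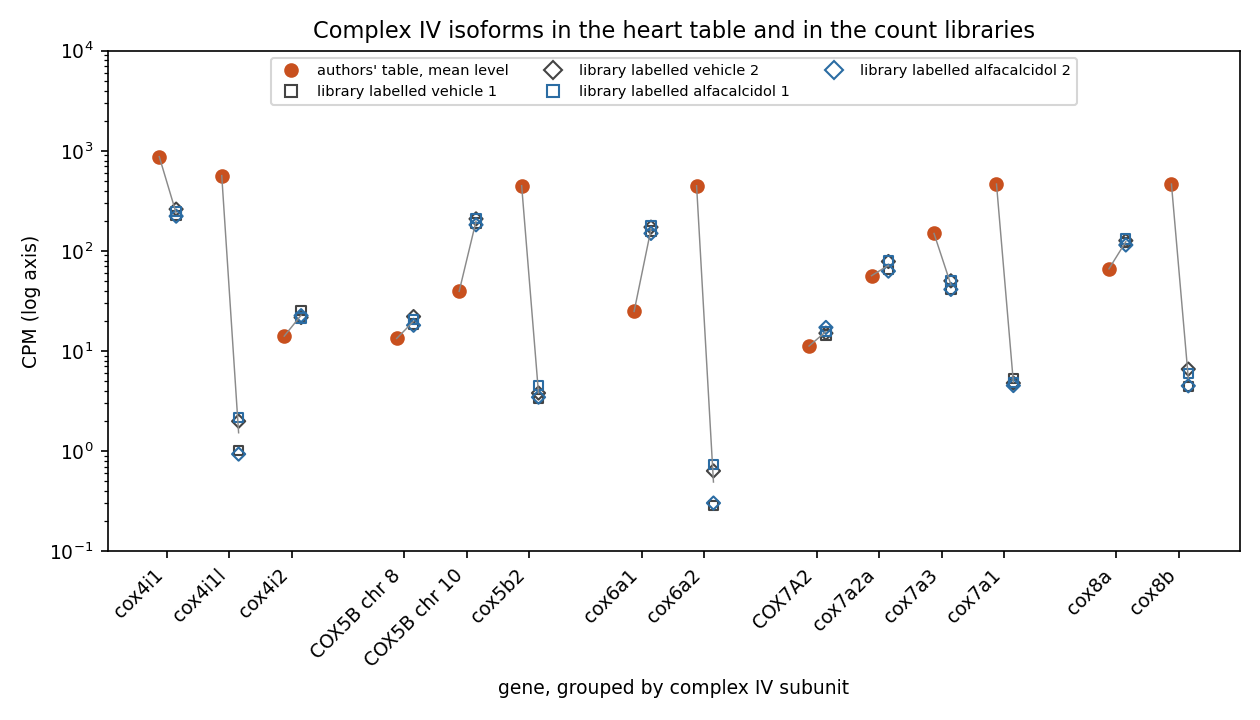
Levels in CPM (log axis) of complex IV genes with alternative forms, grouped by subunit along the x axis; filled circles are the mean of the authors' deposited table, open symbols the 4 count libraries by label, and grey lines join the table's value to the mean of the libraries. The forms cox4i1l, cox5b2, cox6a2, cox7a1 and cox8b stand between 447.8 and 565.8 CPM in the table and at 6.59 CPM or less in every count library. CPM are not scaled for length, so heights are not compared between genes.

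Across the 24 nuclear members of complex IV the level difference between the sources and the log2 fold change of the authors' deposited table ran in opposite directions (Pearson r -0.68, Spearman rho -0.67). Of the 14 complex IV genes above the nuclear median of that level difference, 13 had a negative value in the authors' deposited table. Of the 10 at or below it, 8 had a positive one. The 14 had means of 149.4 CPM or more in that table, while the 10 reached down to 1.68 CPM for ndufa4l2a. Of all 81 nuclear members at 64 CPM or more, 68 were negative there, so the split also sorts the genes by level. Over the 78 nuclear members of the other complexes r was -0.30 and rho -0.37. The table's level alone had a rho of -0.59 with its log2 fold change over the 24 genes and of -0.14 over the 78. These are descriptions across genes, which are not independent replicates, they were chosen after the values were seen, and the level and the change in the table come from the same libraries.

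**Figure D4:**
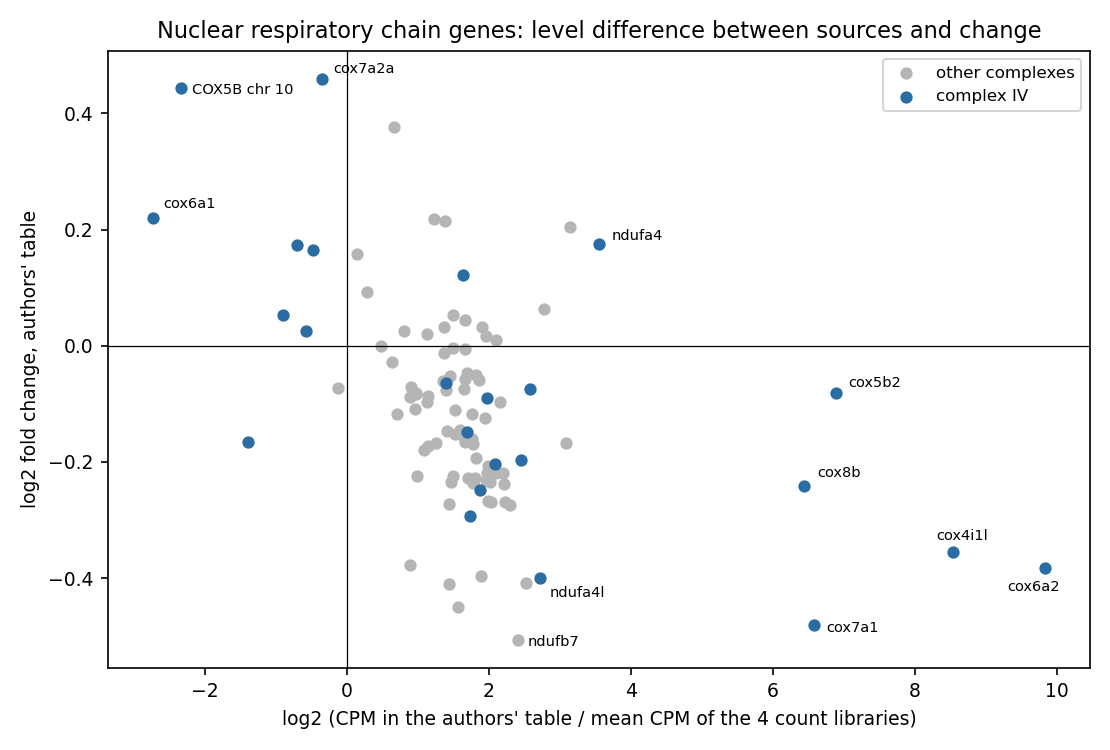
Each point is 1 of the 102 nuclear members: the x axis is the log2 ratio of its mean CPM in the authors' deposited table to its mean over the 4 count libraries, and the y axis its log2 fold change in the table. Complex IV genes (blue) run from cox6a1, COX5B on chromosome 10 and cox7a2a at the upper left to cox4i1l, cox6a2 and cox7a1 at the lower right, while the other complexes (grey) form a narrow band on the x axis.

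Genes that serve the chain without belonging to it were read from 8 lists. Among transcriptional regulators of mitochondrial genes, 4 of 15 passed the test in the authors' deposited table, 3 lower and 1 higher (median -0.09). The coactivator gene ppargc1a, a central driver of mitochondrial biogenesis, was lower at -0.91 (adjusted p 2.19e-05), as were pparaa at -0.96 and the oxidative stress factor gene nfe2l2a at -0.65. The related coactivator gene pprc1 was higher at 0.90 (adjusted p 0.0358). The genes nrf1 and esrra stood at 0.29 and -0.12 without a call in the authors' deposited table. Relatives of ppargc1a and pparaa with higher mean CPM were not called there either. The gene ppargc1b stood at -0.09 (mean 128.3 CPM, adjusted p 0.813), against a mean of 74.9 CPM for ppargc1a. For pparab the value was -0.09 (mean 12.5 CPM, adjusted p 0.819), against a mean of 3.64 CPM for pparaa.

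Genes that copy and transcribe mitochondrial DNA or handle its RNA mostly had positive values, 21 of 24 in the authors' deposited table (median 0.25). Over all genes 49.0% were negative. Values tilted with level, as given above, and the part of level in this list was not tested. Of the 24, 3 were called higher and 0 lower, against 10.9% higher and 9.22% lower over all genes. The 3 were polrmt, for the mitochondrial RNA polymerase, at 0.53 (adjusted p 0.0376), polg, for the DNA polymerase, at 0.74 and peo1, for the replicative helicase, at 0.72. The packaging factor gene tfam stood at 0.30 (adjusted p 0.273) in that table.

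For ATP and proton exchange, 5 of 13 genes passed the test in the authors' deposited table, 4 lower and 1 higher (median -0.42). The ADP/ATP carrier gene slc25a5, at a mean of 12025 CPM, was lower at -0.53 (adjusted p 0.0159). Its relative slc25a4, at a mean far below that of slc25a5, was lower at -0.87 and the uncoupling protein gene ucp2 at -0.94. A mitochondrial creatine kinase gene, ckmt1, was lower at -0.78, but at a mean of only 1.79 CPM. The more abundant creatine kinase genes ckmt2a and ckmt2b were not called in the authors' deposited table. Their values were 0.13 (mean 494.9 CPM, adjusted p 0.669) and -0.42 (mean 364.0 CPM, adjusted p 0.0775). The gene ucp3 (chromosome 10, 36706163 to 36729623) was higher at 0.68. Its listed span overlaps that of ucp2 (36718882 to 36729630). The sources used here do not say how reads shared by them were counted, so both values are uncertain. Among electron carriers and coenzyme Q genes 2 of 17 passed the test in the authors' deposited table, both lower: coq10b, for a coenzyme Q binding protein, at -1.40 (adjusted p 9.58e-07) and adck3, needed for coenzyme Q synthesis, at -0.66. The cytochrome c gene cycsb stood at 0.27 without a call there.

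Of 27 genes listed by symbol as import translocases, 2 passed the test in the authors' deposited table, both higher (median 0.16), tomm40l at 1.09 and timm13 at 0.71. The uncalled gene timmdc1 was taken into this list by its symbol and is also counted among the assembly factors that follow. No gene was called in that table among 34 further assembly factors and translation activators (median -0.01, 3 at an unadjusted p under 0.05), 76 mitochondrial ribosomal protein genes (median 0.08, 2 under 0.05) and 22 genes of the citric acid cycle and the pyruvate dehydrogenase complex (median -0.18, 3 under 0.05). All these counts can be set against the 20.1% of all genes called in the authors' deposited table, 9.22% lower and 10.9% higher.

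In the count libraries, all 115 members were found by Ensembl gene ID and all passed the low count filter. The edgeR quasi-likelihood test called 0 of them and 0 of 22428 genes in all (0.0%), at a smallest adjusted p of 1.0. At an unadjusted p under 0.05 there were 0 members and 128 genes (0.571%), and DESeq2 called 0 genes, with 20 at an unadjusted p under 0.05. With the libraries blocked by the crossed pairs above, a choice made after the data were seen, 0 members were called, against 0.0312% of all genes. Median log2 fold changes between the labels were -0.02 for the 102 nuclear and 0.01 for the 13 mitochondrially encoded genes, beside 0.00 for all genes. Values of the members ran from -0.37 for ndufaf6 to 0.24 for ndufa9b, which had at most 52 reads in any library.

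None of the 6 genes called in the heart table was called between these labels. The CPM of mt-co2 were 2813 and 3324 under the vehicle label and 3211 and 3046 under the alfacalcidol label, a log2 fold change of 0.03 (95% interval -0.20 to 0.26). For mt-co1 they were 7841 and 8964 under vehicle and 8828 and 7836 under alfacalcidol, a log2 fold change of -0.01 (95% interval -0.25 to 0.22). For ndufb7 the pairs were 48.9 and 55.4 CPM against 54.1 and 49.2 CPM, and the interval ran from -0.24 to 0.22. The log2 fold changes of mt-co3 and mt-cyb were -0.02 and 0.01, with 95% intervals from -0.24 to 0.20 and from -0.23 to 0.25. For cox7a1, at the CPM given above, the value was -0.10 and its interval, from -0.48 to 0.27, was wider. In each of these 6 genes the values under the labels overlapped. The intervals of mt-co1, mt-co2, mt-co3, mt-cyb and ndufb7 do not reach the -0.51, -0.61, -0.48, -0.47 and -0.51 of the authors' deposited table. That of cox7a1 ends at about its -0.48 there, and the RNA differs, as the markers show.

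The lowest p among the members belonged to ndufaf6, for a complex I assembly factor, with 5.70 and 5.90 CPM under the vehicle label and 4.79 and 4.21 CPM under the alfacalcidol label, a log2 fold change of -0.37 with a 95% interval from -0.74 to 0.00 (adjusted p 1.0, edgeR). Both values under alfacalcidol lay below both under vehicle. Such a lack of overlap was found in 6 of 115 members, against 21.0% of all 22428 genes. The 2 with both alfacalcidol values on top were NDUFAF8 and COX7A2 (10.6% of all genes), and the 4 with both below were ndufaf5, ndufaf6, sdhaf4 and atp5s (10.5% of all genes). None of them was called. The RefSeq gene table (GRCz12tu) lists atp5s as dmac2l.

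The lowest p of the other complexes came with small differences. COX7A2, a further form of subunit VIIa, had 14.5 and 15.1 CPM under vehicle and 15.7 and 17.2 CPM under alfacalcidol, a log2 fold change of 0.16 (95% interval -0.07 to 0.39). The values of mt-atp8 were 141.3 and 167.0 CPM against 170.1 and 165.4 CPM, which overlap (log2 fold change 0.12, 95% interval -0.11 to 0.35). Elsewhere the lowest p belonged to sdhaf3 at -0.15 and sdhaf4 at -0.15 in complex II, to uqcrq at -0.10 and uqcrc2a at -0.07 in complex III and to atp5s at -0.18 and atp5f1 at -0.08 in complex V. None of these passed the test.

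Libraries of the same label differed more than the labels did. Mitochondrially encoded genes made up 2.80% and 3.27% of counts under the vehicle label and 3.22% and 2.86% under the alfacalcidol label. The 102 nuclear members made up 0.957% and 1.07% under vehicle and 1.08% and 0.915% under alfacalcidol. Vehicle replicate 1 and alfacalcidol replicate 2 were thus the low libraries for both classes, and the groups overlapped.

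The same libraries differed in tissue markers. Epidermis markers, 5 of 5 found, summed to 26297 and 17054 CPM under vehicle and to 17082 and 25212 CPM under alfacalcidol, high where the respiratory chain was low. Skeletal muscle markers, 6 of 7 names found, summed to 36918.5 and 40166 CPM under vehicle and to 40203 and 34298 CPM under alfacalcidol. They were low where the respiratory chain was low. Heart muscle markers, 8 of 8 found, summed to 302.0 and 339.6 CPM under vehicle and to 353.4 and 300.7 CPM under alfacalcidol. The widest ranges among the members were those of cox6a2, at 2.58-fold between the highest and lowest library, and cox4i1l, at 2.31-fold, with values of 1.02 and 1.99 CPM under vehicle and 2.16 and 0.932 CPM under alfacalcidol. The part of tissue makeup in these differences was not tested.

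**Figure D5:**
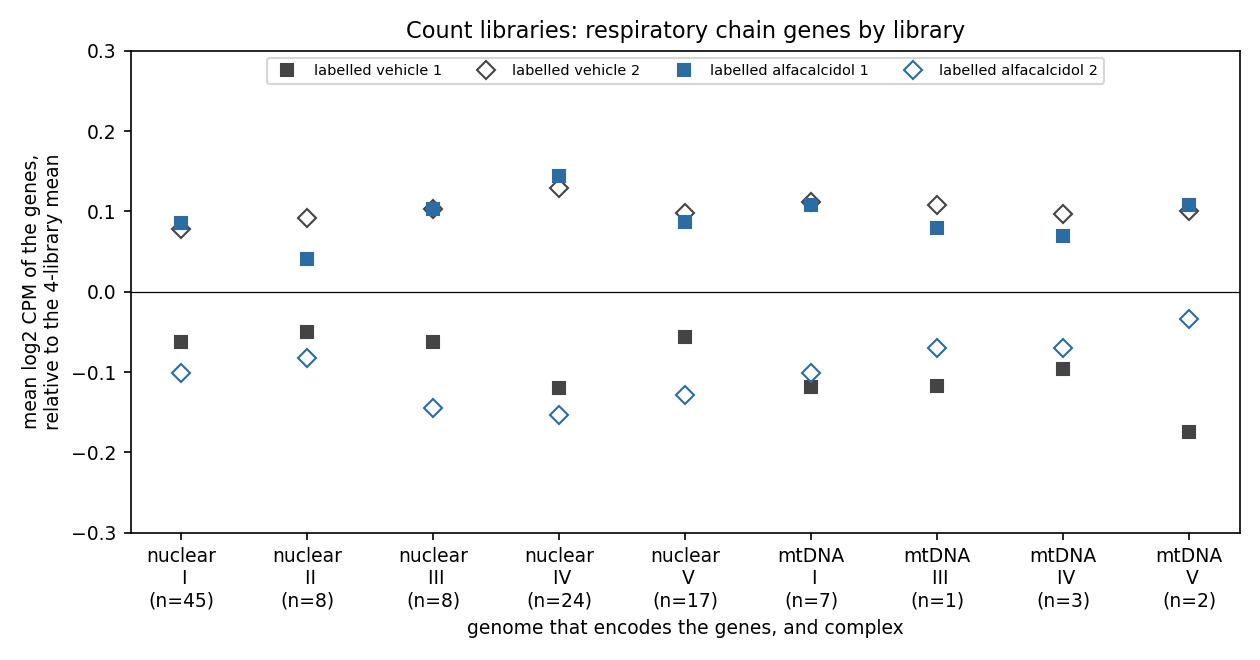
For each complex and encoding genome (x axis), the mean log2 CPM of its genes in each count library relative to the mean of the 4 libraries (y axis). Points of vehicle replicate 2 and alfacalcidol replicate 1 lie above 0 and those of vehicle replicate 1 and alfacalcidol replicate 2 below 0 in every column, from -0.17 to 0.14.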

How the data were processed

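The authors deposited raw read counts per Ensembl gene. The submitters' processing notes name CASAVA, TopHat2, featureCounts and the GRCz10 build; the sources used here give no settings or strand. The log2 fold changes, log2 CPM levels and p-values of 1 comparison were deposited by the authors as edgeR output, per the same notes. The quasi-likelihood F-test of edgeR 4.0.16 (R 4.3.3) was run on the counts after filterByExpr and TMM scaling, with group as the only term and Benjamini-Hochberg adjustment (threshold 0.05); the fit was tested on simulated data. Printed CPM of libraries use TMM-scaled totals. DESeq2 1.42.0 and the settings of the closing section were alternatives.

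Members were matched by symbol in the table and by gene ID in the counts. Members, lists and markers were chosen with earlier results of these data known. Named were all mitochondrial genes, called members, the 2 highest and 2 lowest nuclear genes per complex, alternative forms, the lowest p in the counts and called list genes; nrf1, esrra, tfam, cycsb and the other uncalled genes were added after their values were seen. No 2 libraries were identical: over 19145 genes with 200 or more reads in sum, the mean chi-square per gene was 2.21 (vehicle 2 against alfacalcidol 1) to 22.2. Depths were 31427486 to 39572163 counts, but some members had few reads (cox6a2 9 to 25 per library), for which counting error is large; 0 sample columns went unused.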

Additional observations from a re-analysis of the deposited data

How the results depend on the processing

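In the count libraries, 0 members were called under every setting tried: RLE scaling, no scaling, no low count filter, mitochondrial genes left out, DESeq2, an adjusted p of 0.1, the replicate block and each library left out. The replicate number as a block gave 0 called genes; deviations of same-numbered libraries correlated at -0.47 over genes, and a block on the crossed pairing, added after the data were seen, called 7 genes and 0 members. The median log2 fold change ran from -0.14 to 0.09 for nuclear and from -0.10 to 0.13 for mitochondrially encoded genes as each library was left out, so their signs rest on single libraries; without alfacalcidol replicate 1 the nuclear median was lowest and without vehicle replicate 2 the mitochondrial one highest. Left-out libraries moved 14 single gene values beyond their spread, with no call. In the authors' deposited table an adjusted p of 0.1 called 7 nuclear and 8 mitochondrial genes, 14 lower and 1 higher (cox7a2a), against 25.4% of all genes, and a 2-fold minimum left 0 and 0, against 8.43%. Adjusting over genes at 1 CPM or more left both counts at 2 and 4. That table has no values per library, so nothing in it could be refitted.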

Other observations

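The gene name table gives symbols of these families to 7 further genes of the count files that the symbol rule did not take. Of these, 5 have a row in the authors' deposited table under another symbol, and 0 of the 5 were called there. The genes atp5if1b and atp5if1a, for inhibitors that stop the synthase from running in reverse, are listed as atpif1b and atpif1a in the authors' deposited table, at log2 fold changes of -0.39 (adjusted p 0.106, unadjusted p 0.0274) and 0.11 (adjusted p 0.741). They were counted there under ATP and proton exchange. Values in the authors' deposited table were -0.11 for the ATP synthase gene atp5md, -0.09 for atp5mj and -0.23 for the complex I subunit gene NDUFB1. Between the labels of the count libraries these 5 genes had log2 fold changes of -0.04 to 0.02. The other 2 genes had counts only: SDHD had between 8 and 34 reads per library and ndufa4l2b between 6 and 16, which fell below the low count filter. None of the 6 that were fitted was called by the edgeR quasi-likelihood test (adjusted p 1.0 each).

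A few subunit genes were listed at low CPM in both sources. The complex III gene uqcrb was listed at 8.23 CPM in the authors' deposited table, with 0.832 to 0.979 CPM in the count libraries. The complex I gene ndufa12 was listed at 5.64 CPM in the authors' deposited table, with 0.621 to 0.731 CPM in the count libraries. CPM are not scaled for length, and other gene copies or gene model errors were not examined.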
